A study of Mus musculus with 16 samples.

Results

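The genes described here are those that make, break down and restrain the polyamines putrescine, spermidine and spermine. They were chosen by name, as the rows of the deposited muscle table with the symbols Odc1, Amd1, Amd2, Srm, Sms, Sat1, Paox, Smox, Oaz1 and Oaz2. All 10 have a row among the 14538 genes of the table, and all 10 are among the 11841 genes with enough signal to be tested.

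The data are RNA sequencing of the tibialis anterior (TA), a mostly fast-twitch muscle of the shin, with 1 library per mouse. There were 5 vehicle-treated mice (Vehicle), 6 mice injected with recombinant GDF15 (GDF15) and 5 pair-fed mice (PairFed, numbered 2 to 6). GDF15 is a circulating stress hormone that lowers food intake through a hindbrain receptor. Pair-feeding gives mice not given GDF15 the amount of food that the GDF15-treated mice ate, so that GDF15 can be compared with eating less alone. Of the labels' 3 doses of 0.3, 1 and 5 nmol/kg, which one these mice received, and for how long, is not given in the sources used here.

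What all 3 groups shared limits them as a model of lean muscle. Every mouse was a wild-type male of strain C57BL/6 by the labels (C57BL/6J background by the methods), housed singly at 29 °C, and had been on the NASH diet (high in fat and fructose) from 8 weeks of age. GDF15 was given under the skin once a day in the morning. Each PairFed mouse was given the weight of food that GDF15 mice had eaten on the previous day. The mice were different animals in the 3 groups, although the labels reuse the same numbers.

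Polyamines are small positively charged molecules that bind RNA and are needed for growth and translation. Ornithine decarboxylase (Odc1) makes putrescine, and S-adenosylmethionine decarboxylase (Amd1, with its copy Amd2) makes the aminopropyl donor that spermidine synthase (Srm) and spermine synthase (Sms) add to putrescine and then to spermidine. Breakdown runs through acetylation by Sat1 followed by oxidation by Paox, or through direct oxidation of spermine by Smox. The antizymes Oaz1 and Oaz2 bind ornithine decarboxylase, send it to the proteasome and reduce polyamine uptake. In skeletal muscle this pathway is known for its response to androgens and to growth and wasting.

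The authors' values were transformed back from a log2 scale to normalized counts, that is, reads per gene after scaling for library depth. The approximate depth of a library was 11878113 to 15057271 reads in Vehicle, 9539845 to 13868473 in GDF15 and 11805502 to 14729187 in PairFed mice. The 6 markers of muscle fibres (Acta1, Ckm, Tnnt3, Pvalb, Myh4 and Myh1) together took 15.36% to 17.5% of the counts of a library and were present in all 16. Summed markers of slow fibres were low in 13 libraries and stood apart in GDF15 mouse 1 (1601), PairFed mouse 3 (1424) and PairFed mouse 6 (893), against a median of 221 normalized counts over all 16. Values of the 10 genes that changed their call, their sign or their size by over 1.5 times without those 3 libraries are given with and without them. The summed markers of adipocytes (50.8 to 1193), macrophages (85.03 to 287), fibroblasts (2592 to 5944), Schwann cells (349 to 1020), red blood cells (79.9 to 3743, with 3 of 4 genes in the table and Alas2 at 0 in at least 1 library) and satellite cells (44.6 to 76.0 normalized counts) overlapped between all 3 groups. In RNA from a whole muscle, fewer cells of a type and less RNA per cell cannot be told apart.

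Amd1 and Amd2 must be read together, because their transcripts are almost the same. Amd1 lies at chr10:40287458-40302186 on the minus strand (GRCm38, the mm10 build) and its main transcript has 8 exons, whereas Amd2 lies at chr10:35708675-35711892 on the same strand and has 1 exon. In GENCODE vM21 their transcripts of 3204 and 3218 bases are 99.6% identical over the aligned bases. Of the 1002 coding bases, 1 differs, the substitution G796C counted from the first base of the start codon with the Amd1 base first. Coding bases 766 to 825 are shown to make that single difference visible, with the differing base in capitals.
Amd1: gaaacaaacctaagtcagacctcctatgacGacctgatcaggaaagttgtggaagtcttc
Amd2: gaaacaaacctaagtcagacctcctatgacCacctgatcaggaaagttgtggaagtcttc

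Of all 3169 stretches of 50 bases, the read length, in the Amd2 transcript, 85.7% also occur in Amd1, as do 86.1% of the 3155 stretches of Amd1 in Amd2. Reads were sequenced in pairs, and the share of pairs that match both genes was not computed. The estimated split between these genes, and from further near-identical pseudogene copies of Amd1, is uncertain.

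The upstream sequence of the copies is not alike. The 250 bases before the RefSeq start site (GRCm38.p6) are given below for the member with the smallest adjusted p-value in each comparison (Amd2, Sat1 and Oaz2), and for Amd1 and Smox, which rose and fell together across mice and were chosen after their values were seen. In GENCODE vM21 the Oaz2 and Smox genes begin further upstream, so that their windows lie inside the annotated gene. Capitals mark matches on either strand to 7 motifs that were searched for: CACGTG (the E-box bound by MYC), TGACGTCA (the cAMP response element), TGACG (its half-site, contained in it), AGAACA (a half-site for androgen and glucocorticoid receptors), TTCNNNGAA (a STAT element), TATAAA and CCAAT.
Amd1, chr10:40302189-40302438, minus strand: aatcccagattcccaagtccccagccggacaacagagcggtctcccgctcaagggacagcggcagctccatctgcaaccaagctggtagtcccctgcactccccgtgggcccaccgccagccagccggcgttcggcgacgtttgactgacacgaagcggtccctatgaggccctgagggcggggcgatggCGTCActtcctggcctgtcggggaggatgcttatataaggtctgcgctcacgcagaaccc
Amd2, chr10:35711892-35712141, minus strand: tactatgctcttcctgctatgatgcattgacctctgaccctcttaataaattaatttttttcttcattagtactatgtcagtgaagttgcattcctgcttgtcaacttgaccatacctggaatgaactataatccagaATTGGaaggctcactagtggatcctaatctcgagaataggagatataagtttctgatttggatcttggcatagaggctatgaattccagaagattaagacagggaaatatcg
Smox, chr2:131491612-131491861, plus strand: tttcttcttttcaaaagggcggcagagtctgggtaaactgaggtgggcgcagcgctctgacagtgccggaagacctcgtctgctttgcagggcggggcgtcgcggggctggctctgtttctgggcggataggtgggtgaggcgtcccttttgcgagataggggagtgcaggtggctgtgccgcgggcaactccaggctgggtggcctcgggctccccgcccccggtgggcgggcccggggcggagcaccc
Sat1, chrX:155216450-155216699, minus strand: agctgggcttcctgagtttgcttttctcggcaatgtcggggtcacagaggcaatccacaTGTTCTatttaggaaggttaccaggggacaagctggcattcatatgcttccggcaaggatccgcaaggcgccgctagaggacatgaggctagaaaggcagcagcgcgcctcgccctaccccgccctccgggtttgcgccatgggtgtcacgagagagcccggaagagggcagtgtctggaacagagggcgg
Oaz2, chr9:65676298-65676547, plus strand: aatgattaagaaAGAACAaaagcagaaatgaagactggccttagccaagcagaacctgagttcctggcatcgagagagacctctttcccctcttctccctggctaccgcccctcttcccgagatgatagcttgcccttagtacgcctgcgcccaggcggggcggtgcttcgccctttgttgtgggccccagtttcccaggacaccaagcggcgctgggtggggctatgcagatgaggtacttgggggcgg

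The Amd1 window held 64.4% G and C and the Amd2 window 37.6%, against a median of 52.4% over all 32851 windows of the RefSeq table. The capitals in Amd1 are TGACG on the opposite strand, 60 bases before the start site, and TGACG was also found before Odc1 and Oaz1. It occurs in 17.8% of all windows. Amd2 held CCAAT on the opposite strand, which is in 33.8% of all windows, and Sat1 and Oaz2 held AGAACA, which is in 16.1%. The Smox window held none of the 7 motifs. Of the 9 members with a window in the table, only Sms had CACGTG (6.02% of all windows), and none had TGACGTCA (1.55%), TTCNNNGAA (7.02%) or TATAAA (12.4%). Such a match is a description of the letters and not of binding.

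In Vehicle muscle the genes of this pathway differed widely in level. Per kilobase of the longest coding transcript, which allows levels to be compared between genes, Amd1 stood at 3741 ± 989 (SD, n = 5) and Oaz1 at 3726 ± 59.7 normalized counts. Of 11668 genes ranked on this scale they held places 165 and 170, and their ranges overlapped. Oaz2 followed at 1610 ± 76.7 and the spermine oxidase Smox at 1080 ± 241 per kilobase. Sms reached 503 ± 18.3 and Odc1 403 ± 34.6 per kilobase. The transcript of the enzyme that opens the pathway was thus lower than those of the antizymes that restrain it. Protein levels cannot be read from these data.

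The remaining members were much lower. Sat1 stood at 145 ± 10.3 and Srm at 50.3 ± 2.77 normalized counts per kilobase. Paox, at 10.5 ± 3.75, ranked 10112, and Amd2, at 2.17 ± 0.77, ranked 11557. Apart from Amd1 and Oaz1, no neighbours in this order overlapped in their range over the 5 Vehicle mice. The steps were all read from Vehicle mice, and the lengths assume that the longest coding transcript is the one expressed.

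The remaining members are protein-coding genes on other parts of the genome (GRCm38). On the plus strand lie Odc1 (chr12:17544794-17551505), Srm (chr4:148591503-148594993), Smox (chr2:131491496-131525922), Paox (chr7:140115799-140137224), Oaz1 (chr10:80826656-80829290) and Oaz2 (chr9:65668001-65690300). Sat1 (chrX:155213132-155216449) and Sms (chrX:157443855-157492287) lie on the minus strand. The annotation also holds pseudogene copies of Oaz1, Oaz2 and Sms, whose reads the counting could have shared.

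**Figure D1:**
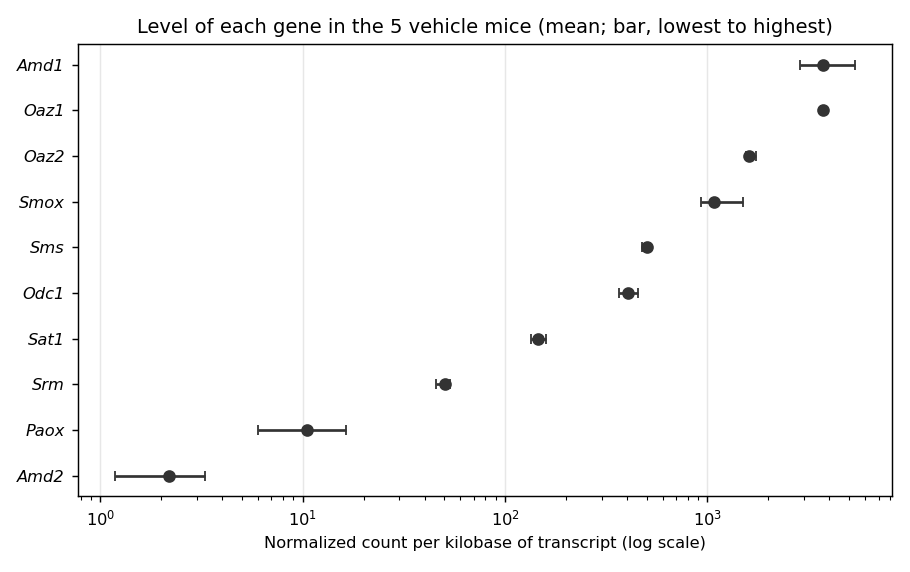
Level of each polyamine gene in the 5 Vehicle mice, as normalized counts per kilobase of the longest coding transcript on a logarithmic axis; points are means and bars run from the lowest to the highest mouse. Amd1 (3741) and Oaz1 (3726) lead and overlap, and Paox (10.5) and Amd2 (2.17) are the lowest.

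The variation between mice also differed by gene. In Vehicle mice Oaz1 had a coefficient of variation of 1.60%, Sms of 3.64% and Oaz2 of 4.76%. Amd1 (26.4%) and Smox (22.3%) varied far more, and so did Paox (35.9%) and Amd2 (35.5%), both of which rested on few reads. The approximate reads behind a Vehicle value were 8748 to 20627 for Amd1 and 2007 to 4114 for Smox, but 32.2 to 72.6 for Paox and 3.61 to 12.6 for Amd2.

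**Figure D2:**
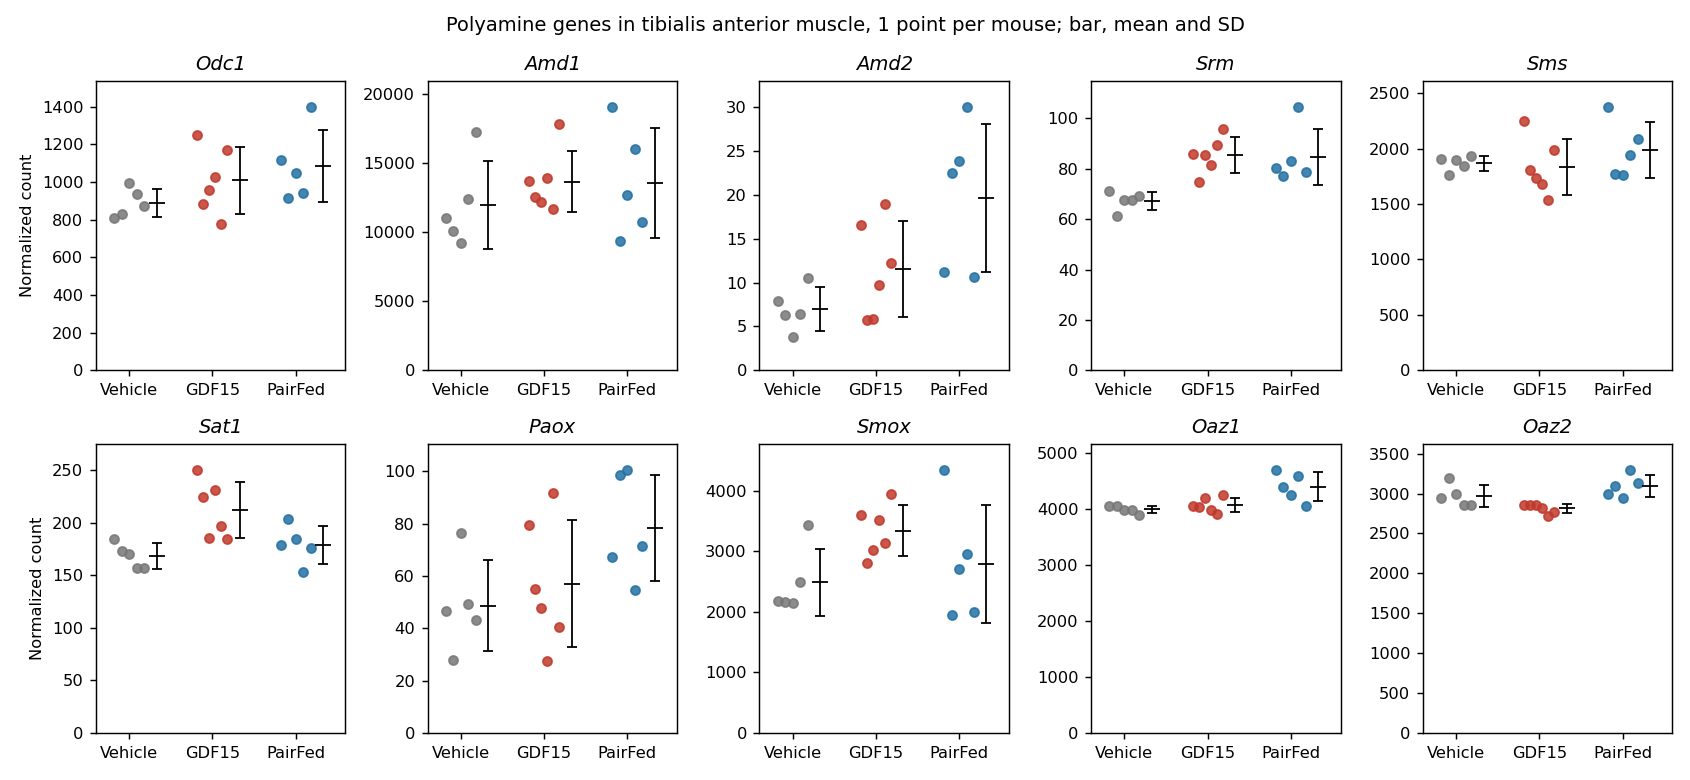
Normalized counts of the 10 polyamine genes on linear axes from 0, with 1 point per mouse in the Vehicle, GDF15 and PairFed groups; the bar beside each group is the mean and SD. PairFed points of Amd2 and Srm lie above all Vehicle points, and GDF15 points of Oaz2 lie below all PairFed points.

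Pair-feeding was compared with vehicle to ask what eating less did to these genes in muscle. Amd2, which reached the minimum for testing only through its PairFed values, passed both thresholds, at 2.81 times the Vehicle mean in PairFed mice. The antizyme Oaz1 rose by 10.2%. Srm was higher in every PairFed mouse than in any Vehicle mouse without passing the test. The log2 fold change was above 0 for 10 of the 10 genes, against 50.2% of all tested genes, with a median of 0.15 against 0.00. Some of these values were small. Smox was at −0.048 without PairFed mouse 2, and Oaz2 at 0.012 when libraries were scaled to their summed counts.

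The test was limma with all 16 libraries in 1 fit, on the log2 of the normalized count with 1 added, a scale that understates the change of low genes. P-values were adjusted over the 11841 tested genes by the Benjamini-Hochberg method. A gene counted as called when its adjusted p fell under 0.1 and its log2 fold change exceeded 0.6 in size, as the authors set for this muscle. By both thresholds 1 of the 10 genes was called in PairFed against Vehicle mice, against 0.819% of all tested genes (0.329% higher). By the adjusted p-value alone 2 passed, both higher, against 6.37% (3.2% higher). At an unadjusted p under 0.05 there were 5, all higher, against 18.9% of all tested genes (9.04% higher). In 2 genes, Amd2 and Srm, the groups did not overlap, against 5.44% of all genes (2.79% higher).

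Amd2 was at 7.93, 6.30, 3.79, 6.38 and 10.6 normalized counts in Vehicle mice 1 to 5. In PairFed mice 2 to 6 it was at 11.2, 22.5, 23.9, 30.0 and 10.6. The groups touched without overlapping, since the lowest PairFed mouse (10.63) lay just above the highest Vehicle mouse (10.56), and mice 3, 4 and 5 carried the rise. Its log2 fold change was 1.32 ± 0.38 (SE; 95% interval 0.53 to 2.11) with an adjusted p of 0.0614. The call was lost without PairFed mouse 4 or 5 or without Vehicle mouse 2, 3 or 4 (adjusted p up to 0.157), and no member was called when Amd1 and Amd2 were added up. On the deposited log2 values, which compress low counts, its fold change fell short of 0.6. Amd2 made up 0.154% of the 2 genes' summed count in PairFed (0.0587% to 0.240%) and 0.0576% in Vehicle mice (0.0412% to 0.0720%), and these shares overlapped by PairFed mouse 2. Amd2 rested on 10.9 to 27.2 approximate reads in PairFed and 3.61 to 12.6 in Vehicle mice. Beside them stood 8748 to 20627 approximate reads of Amd1 in the same 2 groups, with nearly the same sequence.

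Amd1 itself did not pass the test. It was at 11005, 10097, 9190, 12396 and 17244 normalized counts in the Vehicle mice. The PairFed mice had 19063, 9358, 12686, 16066 and 10735, covering nearly the whole Vehicle range and reaching above it. On the log2 scale the difference was 0.17 (95% interval −0.21 to 0.55, adjusted p = 0.670), and it was 0.43 (adjusted p = 0.228) without the 3 libraries high in slow fibre markers. It went from 0.033 without PairFed mouse 2 to 0.31 without Vehicle mouse 5 when single mice were left out, with 0.29 without PairFed mouse 3 and 0.081 and 0.095 without Vehicle mouse 3 or PairFed mouse 5.

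The other synthesis genes had log2 fold changes above 0 as well, none of which passed the test. Srm was at 71.1, 61.2, 67.4, 67.5 and 69.1 normalized counts in Vehicle mice and at 80.5, 77.1, 83.1, 104 and 78.9 in PairFed mice. The groups did not overlap, with PairFed mouse 5 the highest of all libraries, but the log2 fold change of 0.32 ± 0.11 (SE) had an adjusted p of 0.104. With library quality weights, without the trend, with quantile normalization or with a minimum mean of 50 counts it passed (adjusted p 0.06 to 0.0958), and so it did without PairFed mouse 3 (adjusted p = 0.0814).

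Odc1, which makes putrescine, was at 810 to 996 normalized counts in Vehicle and at 1116, 918, 1050, 942 and 1398 in PairFed mice. The ranges overlapped, and PairFed mouse 6 alone lay well above the rest. Odc1 differed by 0.27 ± 0.12 on the log2 scale (SE; adjusted p = 0.231), and by 0.18 without PairFed mouse 6. Sms had a log2 fold change of 0.08 (95% interval −0.11 to 0.27), with 1760 to 1932 normalized counts in Vehicle and 1760 to 2373 in PairFed mice. Leaving out single mice moved it between 0.014 (without PairFed mouse 2) and 0.12 (without PairFed mouse 4).

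Among the antizymes, Oaz1 was at 4052, 4050, 3981, 3974 and 3897 normalized counts in Vehicle mice. In PairFed mice it was at 4696, 4394, 4254, 4591 and 4045. All PairFed mice but mouse 6 lay above every Vehicle mouse, so that the groups overlapped by that mouse. The size of the rise was 0.14 ± 0.04 (SE; 95% interval 0.05 to 0.22) on the log2 scale, with an adjusted p of 0.0647. It missed the threshold without PairFed mouse 2 or 5 or without any of Vehicle mice 2 to 5 (adjusted p 0.103 to 0.162). It also missed it without the trend (0.137), in a fit of only these 2 groups (0.106) and with a block on the mouse number (0.119). The rise was 0.09 (adjusted p = 0.118) when libraries were scaled to their summed counts.

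The muscle fibre markers moved with Oaz1. Their sum took 15.36% to 16.8% of the counts in Vehicle and 16.1% to 17.5% in PairFed mice. Of all genes that are no members, those whose values resembled Oaz1 most over the 16 libraries were Park7 (Pearson r = 0.93), the muscle creatine kinase Ckm (0.90), the tropomyosin Tpm1 (0.89), the glycolytic enzyme Aldoa (0.88) and Spcs2 (0.87). Ckm is in the list of fibre markers, and the part of fibre content in the Oaz1 difference was not tested. Oaz2 differed by 0.06 on the log2 scale (95% interval −0.02 to 0.14, adjusted p = 0.455), and by 0.036 without PairFed mouse 5.

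The breakdown genes did not pass the test. Paox, the polyamine oxidase of peroxisomes, was at 46.7, 28.0, 76.3, 49.3 and 43.2 normalized counts in Vehicle and at 67.2, 98.7, 101, 54.5 and 71.3 in PairFed mice. The ranges overlapped, and the log2 fold change of 0.71 ± 0.29 (SE) had an adjusted p of 0.200. Paox shares exonic sequence with Echs1 on the opposite strand, and whether counting used strand is not given in the sources used here. Sat1 differed by 0.09 (95% interval −0.12 to 0.29) and Smox by 0.13 (−0.25 to 0.50) on the log2 scale. The log2 fold change of Smox moved with single mice, from −0.048 without PairFed mouse 2 to 0.25 without Vehicle mouse 5, with 0.24 and 0.23 without PairFed mouse 3 or 6. Without the 3 libraries high in slow fibre markers it was 0.42 (adjusted p = 0.197), and that of Sat1 was 0.030. Sat1 ranged from 0.040 without PairFed mouse 3 to 0.14 without PairFed mouse 5.

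GDF15 was compared with vehicle next, a comparison that used the same 5 Vehicle mice. The genes with the clearest shifts were Sat1, which starts polyamine breakdown, Srm and Smox, each higher on average with GDF15, and none passed the test. By both thresholds 0 of the 10 genes were called, against 0.304% of all tested genes. By limma's adjusted p-value alone 0 passed, against 0.769%, and 3 had an unadjusted p under 0.05, all higher, against 11% of all tested genes (5.63% higher). The median log2 fold change of the 10 genes was 0.20, against 0.00 over all genes, and 8 were above 0, against 50.4%.

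Sat1 was at 185, 173, 171, 157 and 157 normalized counts in Vehicle mice. In GDF15 mice it ran from 185 to 250 with a median of 211. The lowest GDF15 mouse lay level with the highest Vehicle mouse, so that the ranges met at their edges. On the log2 scale Sat1 differed by 0.33 ± 0.09 (SE; 95% interval 0.13 to 0.52), with an adjusted p of 0.167.

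Srm ran from 61.2 to 71.1 normalized counts in Vehicle and from 74.7 to 95.9, with a median of 85.7, in GDF15 mice. The groups did not overlap, which held for 1 of these 10 genes and for 1.65% of all tested genes (0.785% higher). Srm differed by 0.34 ± 0.10 on the log2 scale (SE; adjusted p = 0.192).

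Smox was at 2179, 2168, 2140, 2487 and 3440 normalized counts in Vehicle mice and ran from 2802 to 3938, with a median of 3321, in GDF15 mice. Vehicle mouse 5 lay inside the GDF15 range and the other 4 below it. The difference on the log2 scale was 0.44 ± 0.17 (SE; adjusted p = 0.337), and it was 0.56 without Vehicle mouse 5.

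Amd1, in contrast, ran from 11706 to 17832 normalized counts in GDF15 mice, within or just above the Vehicle range. Its log2 fold change was 0.21 (95% interval −0.15 to 0.57, adjusted p = 0.714), and it was 0.12 without Vehicle mouse 3, 0.13 without GDF15 mouse 6 and 0.35 without Vehicle mouse 5. Amd2 had a log2 fold change of 0.58 (95% interval −0.18 to 1.34, adjusted p = 0.586), with 5.76 to 19.0 normalized counts. The intervals of Odc1 (−0.07 to 0.42), Paox (−0.41 to 0.78), Sms (−0.22 to 0.14), Oaz1 (−0.05 to 0.11) and Oaz2 (−0.16 to 0.0026) all held 0 on the log2 scale. These limits are narrow for the antizymes and wide for Paox and Amd2. The log2 fold change of Odc1 went from 0.17 to 0.10, of Paox from 0.18 to 0.067 and of Sms from −0.039 to −0.10 without the 3 libraries high in slow fibre markers. With single mice left out, Paox ranged from 0.0078 (without Vehicle mouse 2) to 0.37 (without GDF15 mouse 4).

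Markers of endothelial cells (Pecam1, Cdh5, Kdr and Tek, all 4 present) moved with the groups. Their sum was 4132 to 4971 normalized counts in Vehicle, 3475 to 4284 in GDF15 and 3642 to 4404 in PairFed mice. Their part in the differences from Vehicle mice was not tested.

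**Figure D3:**
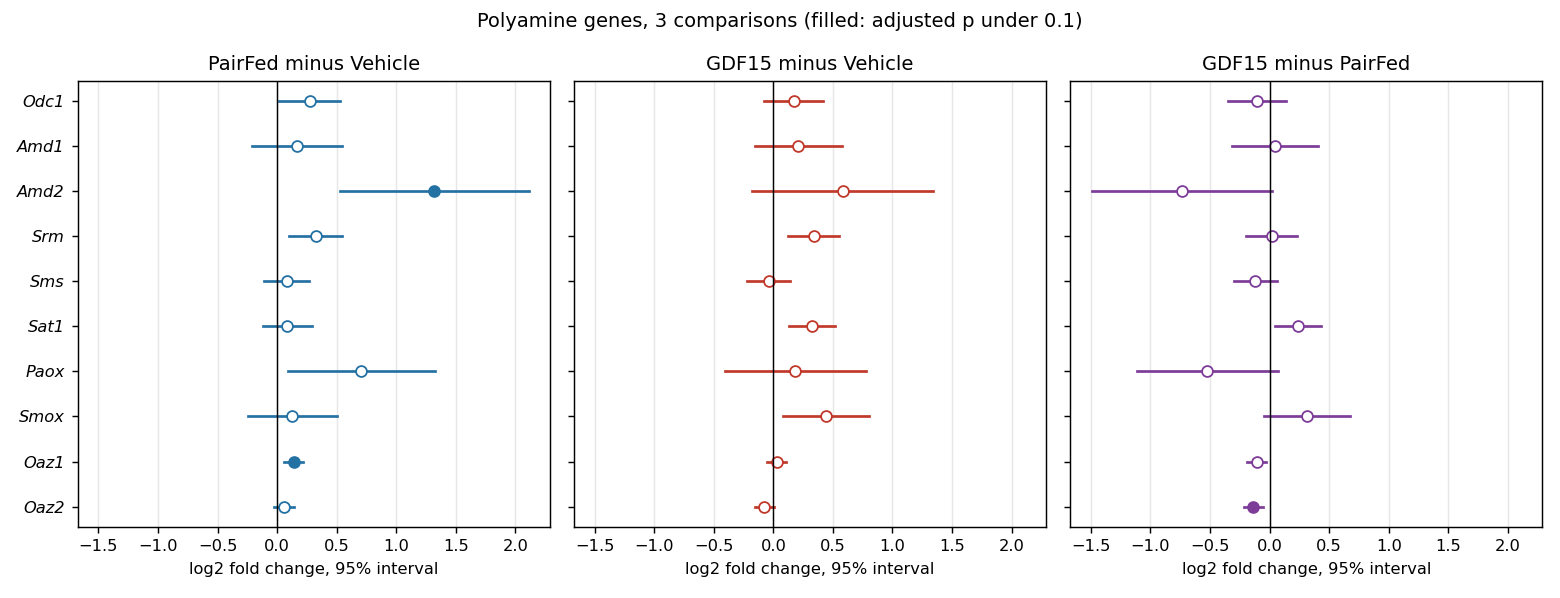
Log2 fold changes of the 10 polyamine genes with their 95% intervals in the 3 comparisons; filled points have an adjusted p under 0.1. Amd2 (1.32) and Oaz1 (0.14) are filled in PairFed minus Vehicle and Oaz2 (−0.14) in GDF15 minus PairFed, and no point is filled in GDF15 minus Vehicle.

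GDF15 was compared with pair-feeding to set aside the lower food intake. The antizyme Oaz2 was lower in every GDF15 mouse than in any PairFed mouse. Its mean was 0.910 times that of the PairFed mice, and it passed the adjusted p-value. Oaz1 was also lower and Sat1 higher without passing it. By both thresholds 0 of the 10 genes were called, against 0.279% of all tested genes. By limma's adjusted p-value alone 1 passed, lower, against 2.17% of all genes (1.24% lower). At an unadjusted p under 0.05 there were 3, of which 1 was higher and 2 lower, against 13.2% of all genes (6.29% higher and 6.87% lower). The median log2 fold change was −0.11, against 0.00 over all genes, and 4 of 10 were above 0, against 50.8%.

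Oaz2 was at 2990, 3096, 2945, 3294 and 3129 normalized counts in PairFed mice. In GDF15 mice it ran from 2714 to 2862 with a median of 2837, a narrow range below every PairFed mouse. Groups that did not overlap were found for 1 of the 10 genes and 1.77% of all tested genes (1.06% lower). Oaz2 differed by −0.14 ± 0.04 (SE; 95% interval −0.21 to −0.06) on the log2 scale, with an adjusted p of 0.0974. The Vehicle mice, at 2946, 3193, 2999, 2851 and 2850, lay between the other 2 groups and overlapped both.

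The call of Oaz2 was a marginal one. It was lost in 10 of the 15 other fits and when any single library but PairFed mouse 4 or Vehicle mouse 2 was left out. The fold change itself stayed between −0.15 and −0.11 when single libraries were left out, and it was −0.13 (adjusted p = 0.214) without the 3 libraries high in slow fibre markers.

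Oaz1 differed by −0.11 ± 0.04 (SE; adjusted p = 0.209), with 3910 to 4244 normalized counts in GDF15 and 4045 to 4696 in PairFed mice. The muscle fibre markers moved the same way, taking 15.52% to 16.7% of the counts in GDF15 and 16.1% to 17.5% in PairFed mice, and their part in the lower Oaz1 and Oaz2 was not tested. Sat1 differed by 0.24 ± 0.09 (SE; adjusted p = 0.268), with 153 to 203 normalized counts in PairFed mice. GDF15 mice 1, 2 and 4 lay above all PairFed mice in Sat1 and the other 3 within their range.

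The largest differences by size were the least precise. Amd2 differed by −0.74 (95% interval −1.49 to 0.02, adjusted p = 0.394) and Paox by −0.52 (−1.12 to 0.07, adjusted p = 0.446) on the log2 scale. Smox differed by 0.31 (−0.05 to 0.67, adjusted p = 0.451), Sms by −0.12 (−0.30 to 0.06) and Odc1 by −0.10 (−0.35 to 0.14). Their sizes moved with single mice, Smox from 0.20 (without PairFed mouse 3) to 0.49 (without PairFed mouse 2), Sms from −0.18 (without GDF15 mouse 1) to −0.053 (without PairFed mouse 2) and Odc1 from −0.17 (without GDF15 mouse 1) to −0.0080 (without PairFed mouse 6). Paox was −0.34 without GDF15 mouse 4. Amd1 (0.04) and Srm (0.02) lay close to 0. Without the 3 libraries high in slow fibre markers, Amd1 became −0.22, Srm −0.059 and Smox −0.00068, so that no direction can be read for these genes, and Sms became −0.21.

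Across individual mice the closest relation among the 10 genes was between Amd1 and Smox, the decarboxylase that supplies spermidine and spermine synthesis and the oxidase that turns spermine back into spermidine. The 3 mice highest in Amd1, with 19063 (PairFed mouse 2), 17832 (GDF15 mouse 6) and 17244 (Vehicle mouse 5) normalized counts, had 4339, 3938 and 3440 in Smox. Those are the highest Smox mice of their groups as well. The 2 mice lowest in Amd1, Vehicle mouse 3 (9190) and PairFed mouse 3 (9358), were also the lowest of their groups in Smox, at 2140 and 1952.

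With the group means removed, so that only the variation among mice of a group remained, Pearson's r over the 16 mice was 0.94 (permutation within groups, two-sided, adjusted p = 0.00135 over 45 pairs) and Spearman's rho was 0.93 (permutation, adjusted p = 0.00135). Pearson's r was 0.90 without Vehicle mouse 5 and PairFed mouse 2, the mice farthest from the median of Amd1 once the group means were removed. It stayed between 0.92 and 0.94 when each mouse was left out in turn. This was the only 1 of 45 pairs of members with an adjusted p under 0.05. The pair with the next smallest p was Odc1 and Sms (r = 0.69, permutation, adjusted p = 0.377).

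Among all 11840 other tested genes, Smox had the highest r with Amd1 and Amd1 the highest with Smox once the group means were removed. That rank is a description of these libraries, made after the pair was seen. Both values of a mouse come from 1 library and share its depth and RNA, and no other measurement of these mice was used. The 3 mice high in both genes came from 3 different groups, and none of them was among the 3 libraries high in slow fibre markers. The PairFed mice lowest in Smox, mice 3 and 6, both were, and they were at 9358 and 10735 in Amd1 and at 1952 and 1993 in Smox. Without those 3 libraries r was 0.91 over 13 mice (permutation within groups, two-sided, unadjusted p = 0.00026) and rho was 0.85 (permutation, p = 0.00166). These p-values reuse the same mice for a pair already chosen, so they are not separate evidence for the relation.

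The level of Smox relative to Amd1 was highest on average in GDF15 mice. The ratio of their normalized counts was 0.209 ± 0.015 (SD, n = 5) in Vehicle, 0.245 ± 0.020 (n = 6) in GDF15 and 0.204 ± 0.019 (n = 5) in PairFed mice. Vehicle mice ran from 0.198 to 0.233, GDF15 mice from 0.221 to 0.267 and PairFed mice from 0.184 to 0.228, so that the ranges overlapped. GDF15 mice 1, 3, 4 and 5 lay above every Vehicle and PairFed mouse. The ratio was chosen after the values were seen and was not tested.

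**Figure D4:**
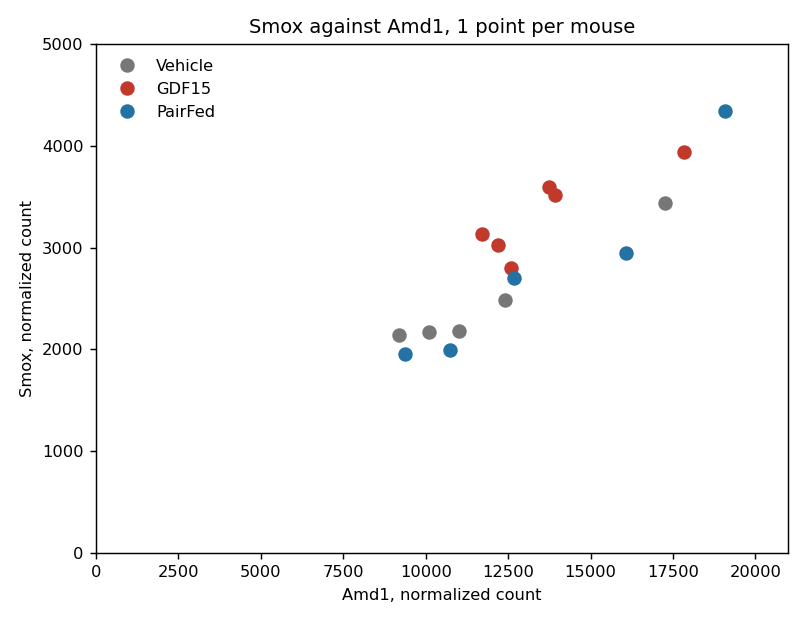
Smox against Amd1 in normalized counts on linear axes from 0, with 1 point per mouse and the group in colour. Points rise together in each group, from Vehicle mouse 3 (9190 and 2140) to PairFed mouse 2 (19063 and 4339). GDF15 mice 1, 3, 4 and 5 lie along the upper edge.

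A wider list of 31 genes covered the supply of ornithine and S-adenosylmethionine, the salvage of methylthioadenosine, antizyme inhibitors, other acetylases and oxidases, transport, hypusine and regulators of transcription. Of these, 24 had enough signal to be tested. In PairFed against Vehicle mice 2 passed the adjusted p-value, 1 higher and 1 lower, against 6.37% of all tested genes. At an unadjusted p under 0.05 there were 8, 7 higher and 1 lower, against 18.9% of all tested genes (9.04% higher). The median log2 fold change of the list was 0.12, against 0.00 over all genes, and 19 of 24 were above 0, against 50.2%.

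Ornithine aminotransferase (Oat), which links ornithine with glutamate and proline, was at 2872 ± 86.8 (SD, n = 5) normalized counts in Vehicle and 3181 ± 66.5 (n = 5) in PairFed mice. The groups did not overlap, and the log2 fold change was 0.15 ± 0.03 (SE; adjusted p = 0.0249). It was 0.10 (adjusted p = 0.124) when libraries were scaled to their summed counts, and it passed in every other fit and without any single library. Azin1, the inhibitor that binds antizymes and so protects ornithine decarboxylase, went the other way from Oaz1, from 497 ± 42.7 to 405 ± 41.4 normalized counts. Its log2 fold change was −0.29 ± 0.08 (SE; adjusted p = 0.0609), and the groups overlapped. It missed the threshold without PairFed mouse 4 or 5 or Vehicle mouse 1, 2 or 4 (adjusted p 0.113 to 0.143). With GDF15, Oat was at 3102 ± 98.3 (n = 6) and Azin1 at 476 ± 44.6 normalized counts.

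In GDF15 against Vehicle mice 0 of the 24 passed limma's adjusted p-value, against 0.769% of all tested genes, and 2 had an unadjusted p under 0.05, against 11%. In GDF15 against PairFed mice 0 passed, against 2.17%, and 4 had an unadjusted p under 0.05, of which 2 were higher and 2 lower, against 13.2%. The medians were 0.09 and −0.04 on the log2 scale, against 0.00 over all genes in both comparisons.

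**Figure D5:**
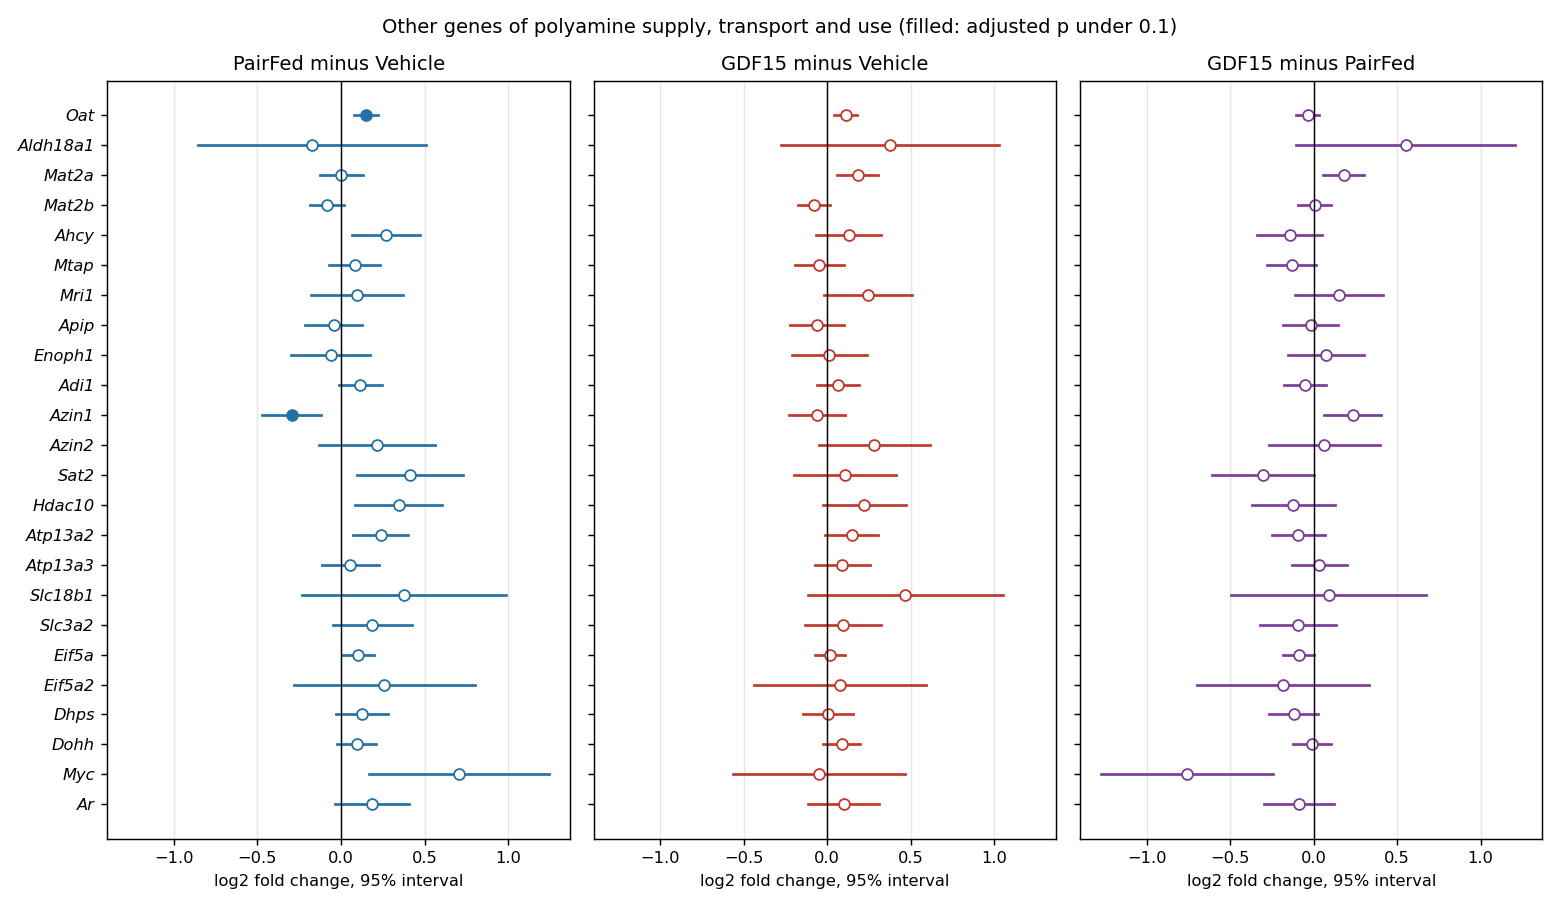
Log2 fold changes with 95% intervals of the 24 tested genes of the wider list in the 3 comparisons; filled points have an adjusted p under 0.1. Oat (0.15) and Azin1 (−0.29) are filled in PairFed minus Vehicle, and no point is filled in the other comparisons.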

How the data were processed

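RNA sequencing of TA muscle from 16 mice was analysed, with groups and mouse numbers from the labels. Per the labels and the methods, the authors used Trim Galore for trimming, Salmon for transcript quantification on mm10 and DESeq2 for scaling; tool versions, annotation and strand setting are not given in the sources used here. They deposited 1 table of log2 values of the variance stabilizing form for 14538 gene symbols. These were transformed back to normalized counts with the closed form of that transformation. Low values of single-transcript genes fell in 89.6% to 97.6% of cases per library within 0.1 reads of whole multiples of 1 step, which gave the approximate depth. In genes with over 4 transcripts 19.9% to 26.4% did, so whole reads were not recovered and no count test was run.

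R 4.3.3 with limma 3.58.1 (lmFit, contrasts.fit, eBayes with a trend) and Python 3.11.15 (numpy 2.4.6, scipy 1.17.1, pandas 2.3.3) served for the analysis. The minimum for testing was a mean of 10 normalized counts, and tests were run on log2(normalized count + 1), without covariates and two-sided. Correlations between members used 100000 permutations within groups. All 10 members were named in every comparison, wider-list genes at an adjusted p under 0.1, and the 5 genes closest to the member other than Amd2 with the smallest adjusted p (Oaz1). The members and lists were chosen with earlier results of these data known. Positions, transcripts and overlaps came from GENCODE vM21 and promoters from RefSeq. The steps were tested on simulated data. Alternatives were other pseudocounts, filters, scalings and thresholds, no trend, quality weights, fits of 2 groups, a block on the mouse number, Amd1 and Amd2 summed, and each library left out. The p-values of limma rest on the spread between mice, 1 library each, pooled over the 3 groups and moderated across all tested genes. Those of correlations come from the permutations.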

Additional observations from a re-analysis of the deposited data

Results flagged for a closer look

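In 36 groups of 5 or 6 mice (10 members, Oat and Azin1 in the 3 groups), 3 held a mouse far from the others by Dixon's test at its 95% critical value, which chance passes in about 1 in 20 groups.

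In Amd1, GDF15 mouse 6 stood at 17832 normalized counts, and the next GDF15 mouse at 13916. In Smox, Vehicle mouse 5 stood at 3440 and the next at 2487. In Srm, PairFed mouse 5 stood at 104 and the next at 83.1. GDF15 mouse 6 and Vehicle mouse 5 were the highest mice of their groups in both Amd1 and Smox.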

How the results depend on the processing

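The member called in PairFed against Vehicle mice (1) became 0 with Amd1 and Amd2 summed, on the deposited log2 values, with a minimum mean of 50 and at an adjusted p under 0.05. Of the 2 members at an adjusted p under 0.1, 1 was left with Amd1 and Amd2 summed (Oaz1), in a fit of only the 2 groups or scaling to summed counts (Amd2), and 0 at an adjusted p under 0.05. Without the trend Amd2 and Srm passed, and with a minimum mean of 50 Oaz1 and Srm did. The wider list went from 2 to 4 genes in a fit of only the 2 groups, and to 1 under scaling to summed counts (Azin1, with Oat lost) or an adjusted p under 0.05 (Oat). In GDF15 against PairFed mice the 1 member became 0 under quality weights, no filter, no trend, a fit of only the 2 groups, quantile normalization, either other scaling and an adjusted p under 0.05, and the wider list went from 0 to 1 (Mat2a) under scaling to summed counts. The cause was not tested.

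Alternatives chosen after the data were seen were depth as a covariate and leaving out the 3 libraries high in slow fibre markers. Both took that 1 member to 0. In GDF15 against PairFed mice Srm reversed to −0.039 with the covariate and, without those libraries, Amd1, Srm and Smox reversed to −0.22, −0.059 and −0.00068.

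When each library was left out in turn, members called in PairFed against Vehicle mice ranged from 0 to 1, members at an adjusted p under 0.1 from 0 to 3 and the wider list from 1 to 4. In GDF15 against PairFed mice both ranged from 0 to 1. The reversals were Amd1 (−0.079 to 0.18) and Srm (−0.017 to 0.093) in GDF15 against PairFed, Smox (−0.048 to 0.25) in PairFed against Vehicle and Sms (−0.10 to 0.0095) in GDF15 against Vehicle mice.

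With the mouse number as a replicate block, 1 member (Amd2, with Oaz1 lost at an adjusted p of 0.119) passed in PairFed against Vehicle mice. In that comparison 1 wider gene passed (Oat, with Azin1 lost at an adjusted p of 0.113), and 0 members passed in GDF15 against PairFed mice. Deviations of same-numbered mice correlated at −0.099 to 0.067, and those of other mice of different groups at −0.112 to 0.194. Expression alone cannot show whether mice were matched by number for food or weight, and this was not tested.

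At this depth Amd2 and Paox rested on few reads per mouse.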
